A study of Caenorhabditis elegans with 2 samples.

Results

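Regions called for tagged ETS-7 at genes of small nuclear and nucleolar RNAs and microRNAs were described here. They were the nuclear regions of the pooled list whose summit, the position of highest signal, lay inside or within 500 bp of an annotated snoRNA, snRNA or miRNA gene and not within 500 bp of a tRNA gene. The rule found 272 of 11607 nuclear pooled regions. The pooled list is a relaxed one that holds background as well as peaks, so a region in it need not be bound. Of the 272, 201 were outside the authors' final list. By class, 167 of the 272 had a snoRNA gene as the gene nearest to the summit, 37 a snRNA gene and 68 a miRNA gene. After merging of overlapping regions the 272 formed 217 loci. ETS-7 belongs to the ETS family of transcription factors, which bind DNA through the ETS domain. It was measured by chromatin immunoprecipitation and sequencing in hermaphrodite *Caenorhabditis elegans* of strain OP487, at the early embryonic stage, 3 hours after synchronization by egg bleaching. The transgenic line carried a GFP-FLAG tag at the C terminus of ETS-7, and the antibody was directed against GFP. All material came from whole organisms of this 1 line, so the cells that gave the signal of a region cannot be told apart. There was 1 group of 2 biological replicates, numbered 3 and 4, and all comparisons are between replicates, gene classes and places, with no test between conditions. Read counts are not part of the files, and the depth is therefore unknown.

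The small nucleolar RNAs (snoRNAs) guide chemical modification of ribosomal and other RNAs, with fibrillarin as the methyltransferase of the C/D class and dyskerin as the pseudouridine synthase of the H/ACA class. The small nuclear RNAs (snRNAs) form the core of the spliceosome, and in nematodes spliced leader RNAs, encoded by sls genes, donate the short leader that is trans-spliced onto many mRNAs. MicroRNAs pair with target mRNAs mainly through a seed near their 5′ end, and the mir-35 and mir-51 families are known for their roles in embryonic development of *C. elegans*. RNA polymerase III reads tRNA genes from an internal promoter made of an A box and a B box inside the gene. In *C. elegans*, many snoRNA genes inside introns are known to be transcribed from promoters of their own rather than released from the host transcript alone, and some of those promoters hold A and B boxes before the mature RNA.

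Some of the snoRNA genes of highest signal carried such a pair of boxes just upstream, and the sequences shown were chosen for it. The pair was found at 18 of the 55 snoRNA genes with a region in the authors' final list, and other genes of similar signal, such as ZK265.10, did not hold it. Each line holds the 120 bases before the gene's annotated 5′ end, on the gene's strand, from the RefSeq WBcel235 assembly (ce11). The capitals mark a match to TGGNNNAG (A box letters) and a following match to GTTCNA (B box letters). These are the 7 snoRNA genes of highest pooled signal that held both, at chrV:12303588-12303707 (C51F7.3, plus strand), chrV:11314138-11314257 (T03F7.8, plus), chrII:11960778-11960897 (W03C9.9, plus), chrV:15873927-15874046 (T06C12.16, minus), chrV:19643188-19643307 (Y43F8C.22, minus), chrII:5105232-5105351 (C04G6.12, minus) and chrIV:7574002-7574121 (F32E10.10, plus).
C51F7.3: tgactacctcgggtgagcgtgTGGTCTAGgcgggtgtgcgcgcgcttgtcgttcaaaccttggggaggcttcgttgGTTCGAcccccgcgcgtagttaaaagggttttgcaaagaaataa
T03F7.8: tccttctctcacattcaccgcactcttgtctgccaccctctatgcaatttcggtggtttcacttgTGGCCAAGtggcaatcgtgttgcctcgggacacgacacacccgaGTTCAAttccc
W03C9.9: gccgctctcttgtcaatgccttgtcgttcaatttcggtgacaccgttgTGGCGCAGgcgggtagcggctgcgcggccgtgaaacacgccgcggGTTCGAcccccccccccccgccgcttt
T06C12.16: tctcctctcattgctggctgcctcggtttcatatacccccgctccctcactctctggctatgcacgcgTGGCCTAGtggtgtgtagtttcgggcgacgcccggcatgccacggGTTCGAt
Y43F8C.22: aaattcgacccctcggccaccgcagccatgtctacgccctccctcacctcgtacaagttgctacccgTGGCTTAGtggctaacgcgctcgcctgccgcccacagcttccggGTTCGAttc
C04G6.12: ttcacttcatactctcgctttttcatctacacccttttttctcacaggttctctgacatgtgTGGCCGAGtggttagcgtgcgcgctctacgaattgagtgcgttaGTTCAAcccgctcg
F32E10.10: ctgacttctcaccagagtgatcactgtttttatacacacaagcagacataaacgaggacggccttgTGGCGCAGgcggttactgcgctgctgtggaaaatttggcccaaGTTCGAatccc

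Some snoRNA genes, with and without a region, held other letters, TGTCGGCC, upstream. Shown are 2 with a region in the authors' final list, with that match in capitals. ZK994.7 lies in an intron of pxn-1, and its upstream bases are at chrV:8500459-8500578 on the plus strand. T26A8.6 overlaps no protein-coding gene, and its upstream bases are at chrIV:8428740-8428859 on the minus strand.
ZK994.7: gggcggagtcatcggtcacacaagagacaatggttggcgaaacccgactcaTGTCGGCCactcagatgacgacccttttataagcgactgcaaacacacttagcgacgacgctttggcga
T26A8.6: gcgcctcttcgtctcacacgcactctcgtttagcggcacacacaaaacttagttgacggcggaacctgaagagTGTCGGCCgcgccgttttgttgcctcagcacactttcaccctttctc

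Mature miRNAs at 13 of the genes with a region, 9 with a region in the authors' final list and 4 without, are shown with the seed, bases 2 to 8, in capitals. They were read from the RefSeq assembly at the annotated mature miRNAs, of which 260 of 261 miRNA genes had one. The first 6 share the seed ACCCGUA and form the mir-51 family. The next 2 share CACCGGG, the seed of the mir-35 family. The remainder are mir-58.1 and its near match mir-80, mir-4929, and the developmental timing miRNAs lin-4 and let-7.
mir-51: uACCCGUAgcuccuauccauguu
mir-52: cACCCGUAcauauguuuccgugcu
mir-53: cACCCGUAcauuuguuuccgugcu
mir-54: uACCCGUAaucuucauaauccgag
mir-55: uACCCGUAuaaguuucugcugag
mir-56: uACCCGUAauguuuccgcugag
mir-35: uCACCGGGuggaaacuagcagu
mir-42: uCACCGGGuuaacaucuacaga
mir-58.1: uGAGAUCGuucaguacggcaau
mir-80: uGAGAUCAuuaguugaaagccga
mir-4929: aAUGCACCacaucuuacgcuca
lin-4: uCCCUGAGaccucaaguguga
let-7: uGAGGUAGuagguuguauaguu

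Regions at these genes were among the strongest of the pooled list, and those at snoRNA genes led. The signal is the authors' value per region, whose scaling is unknown here, and the optimal list is the authors' final set, which on ce11 consists of the pooled regions of highest signal. Of the 272 regions, 71 (26.1%, exact 95% interval 21.0 to 31.7%) were in the optimal list, against 576 of 11607 nuclear pooled regions (4.96%). For snoRNA genes the count was 53 of 167 (31.7%, interval 24.8 to 39.4%), for snRNA genes 9 of 37 (24.3%, interval 11.8 to 41.2%) and for miRNA genes 9 of 68 (13.2%, interval 6.23 to 23.6%). The intervals cover the sampling of regions alone, and those of the 3 classes overlapped in each neighbouring pair. For comparison, 126 of the 396 regions near tRNA genes (31.8%, interval 27.3 to 36.7%) were in the optimal list, and 379 of the 10939 remaining nuclear regions (3.46%). With a stricter call, the optimal regions at or above the median signal of the nuclear optimal list, the background was 2.48%. The shares were then 39 of 167 at snoRNA genes (23.4%), 6 of 37 at snRNA genes (16.2%) and 2 of 68 at miRNA genes (2.94%), the last near the background. Of the 10 nuclear regions of highest pooled signal, 5 were at snoRNA genes and 1 was near a tRNA gene. Of the highest 100, 32 were at small RNA genes of the 3 classes (29 snoRNA, 2 snRNA, 1 miRNA) and 34 near tRNA genes.

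**Figure D1:**
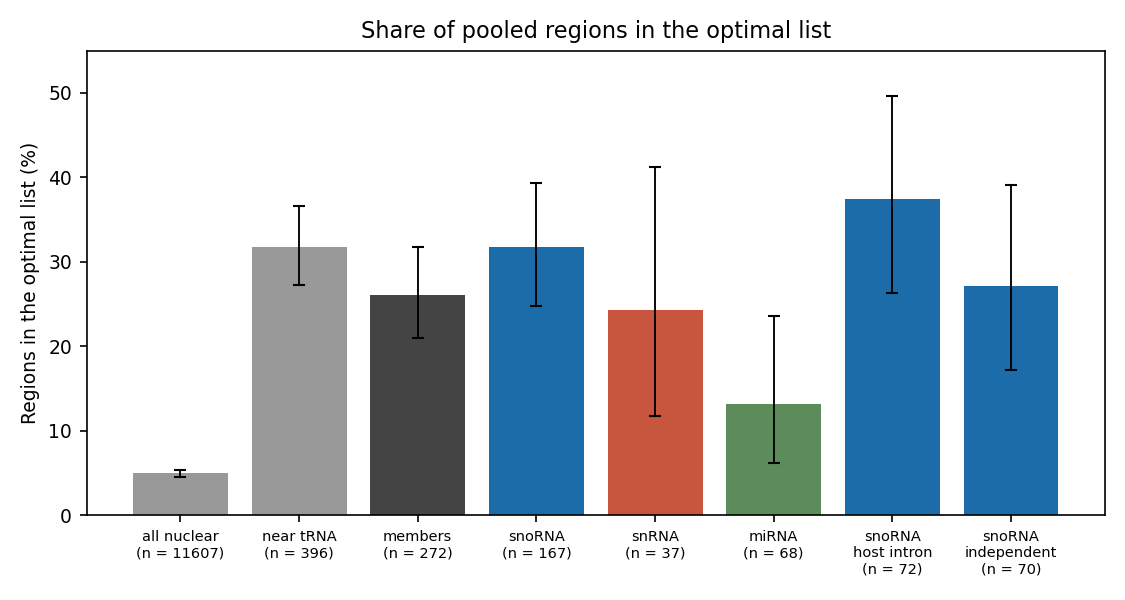
Share of pooled regions in the optimal list (%, vertical axis) for all nuclear regions, regions near tRNA genes, all members (regions at snoRNA, snRNA and miRNA genes) and their classes, with the number of regions under each bar. Error bars are exact 95% intervals, and every class of small RNA gene has a higher share than the 4.96% of all nuclear regions.

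The same order of classes appeared in each replicate's own list. With the 576 highest nuclear regions of each list as the call, the background was 3.55% of 16211 regions in replicate 3 and 3.71% of 15513 in replicate 4. In replicate 3, 52 of 182 snoRNA regions (28.6%), 8 of 36 snRNA regions (22.2%) and 11 of 81 miRNA regions (13.6%) were called. In replicate 4, the counts were 55 of 188 (29.3%), 7 of 35 and 8 of 71 (11.3%).

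The median pooled signal was 50.5 over all 272 regions, against 34.8 over all nuclear regions and 59.0 near tRNA genes. It was 53.5 at snoRNA genes, 40.4 at snRNA genes and 40.4 at miRNA genes, where values ran from 27.8 to 311. Signal at snoRNA genes ran from 27.6 to 477. A region overlapped a region of both replicate lists in 212 of 272 cases (77.9%), against 58.1% of all nuclear regions. All 71 optimal members did so, as did all 576 nuclear regions of the optimal list, so this does not set the members apart. In each replicate, 241 of the 272 had an overlapping region, and 2 had none in either. Neighbouring regions of one locus often met the same replicate region, which was so for 104 of the 241 in each list, so their replicate values are not separate measurements. The median log2 ratio of replicate 3 to replicate 4 signal was 0.013 (SD 0.44, n = 212 regions), with replicate 3 higher at 111 and replicate 4 at 101. Over all nuclear regions with both values it was 0.14, over the nuclear optimal list 0.012 and over the optimal members 0.052.

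**Figure D2:**
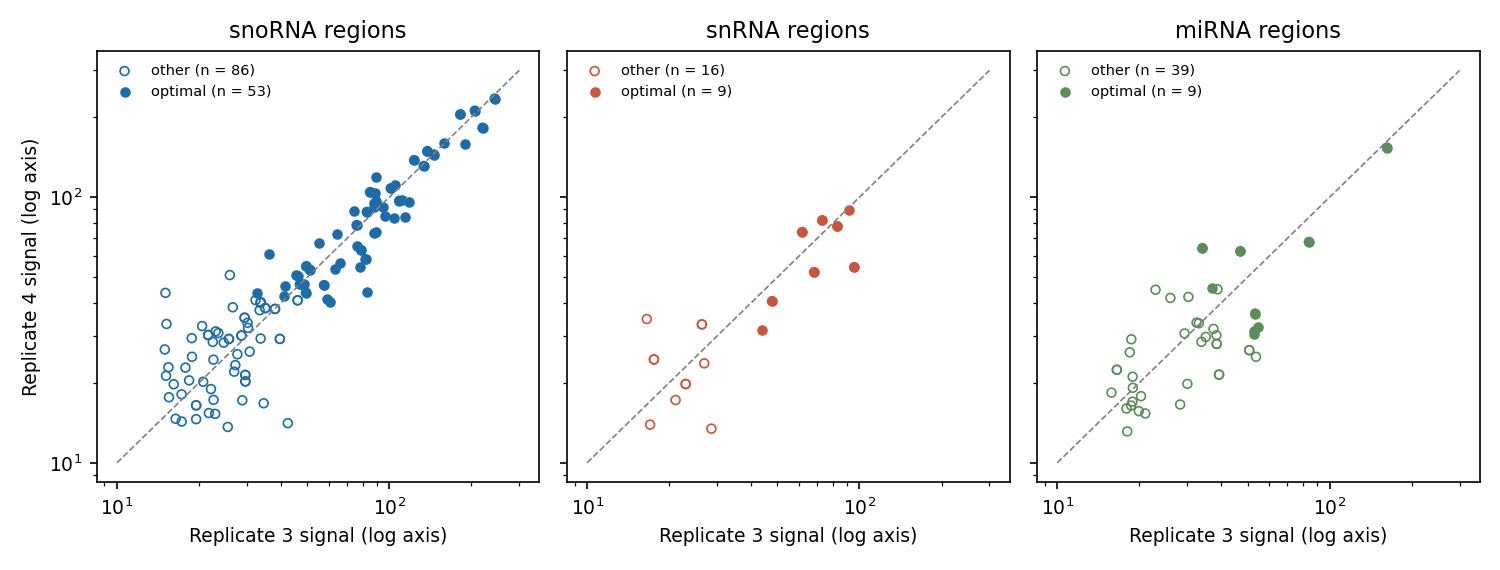
Signal in replicate 3 (horizontal, log axis) and replicate 4 (vertical, log axis) of each region that overlaps a region of both replicate lists, by gene class, with optimal regions filled and the line of equal signal dashed. The optimal snoRNA regions lie along the line, with a log2 ratio SD of 0.29, and the point at mir-51 stands above the rest of the miRNA class. That point is an optimal region and an other region, which met the same replicate regions.

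At snoRNA genes, the highest region had a pooled signal of 477 and replicate signals of 244 (replicate 3) and 235 (replicate 4). Its summit lay in C51F7.4, a 95-bp snoRNA gene that overlaps frm-7 without lying wholly in an intron, just before C51F7.3, whose upstream sequence is shown above. Both boxes shown for C51F7.3 thus lie within C51F7.4, and the summit is 65 bp before the 5′ end of C51F7.3.
The region at T03F7.8, in an intron of cutl-18 on the opposite strand, had a pooled signal of 420, and 206 and 212 in the replicates. ZK265.10 overlaps no protein-coding gene and had 405, with 220 and 182 in the replicates. W03C9.9, also an independent gene, had 386, with 182 and 205. In these 4 regions, the replicates differed by at most 0.27 on the log2 scale.
T06C12.16 (345; 189 and 159) is an independent gene, ZK994.7 (318; 159 and 159) lies in an intron of pxn-1, Y43F8C.22 (290; 146 and 145) in an intron of Y43F8C.7 and C04G6.12 (289; 138 and 149) in an intron of mpk-2. None of these snoRNA genes has a name beyond its sequence ID in the annotation, so their target RNAs are not given. The 53 optimal snoRNA regions ran from 80.9 to 477 with a median of 163. Their replicate medians were 84.9 and 83.6, with replicate 3 higher in 27 and replicate 4 in 26.

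Most summits of the optimal snoRNA regions lay at a similar place, just before the 5′ end of the gene. Of the 53 optimal snoRNA regions, 48 had their summit upstream, 4 inside and 1 downstream of the gene. The median position was 46 bp upstream (quartiles 53 and 30 bp upstream), and 43 of 53 (81.1%) lay between 80 and 10 bp upstream. The 114 other snoRNA regions were spread, with 64 upstream, 13 inside and 37 downstream, quartiles from 200.5 bp upstream to 161 bp downstream of the 5′ end, and 16 (14.0%) in the same narrow interval. Some of the 114 overlap the optimal region of the same locus, such as those 158 bp after the 5′ end of T03F7.8 and 126 bp after that of W03C9.9. After merging, the 132 snoRNA loci, optimal ones included, had 97 summits upstream, 16 inside and 19 downstream, with 58 (43.9%) in the narrow interval. The place recurred in each replicate's own summits, which lay a median of 10 bp (replicate 3) and 9 bp (replicate 4) from the pooled summit at the optimal snoRNA regions. The median position in the replicates' lists was 46.5 bp upstream for the 52 highest regions of replicate 3 and 38 bp upstream for the 55 of replicate 4. Between 80 and 10 bp upstream lay 37 of the 52 (71.2%) and 34 of the 55 (61.8%), lower shares than the 81.1% of the pooled summits. At tRNA genes, where the promoter is internal, 76 of the 126 optimal regions had the summit inside the gene. The median over all 126 was 12 bp after the 5′ end.

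**Figure D3:**
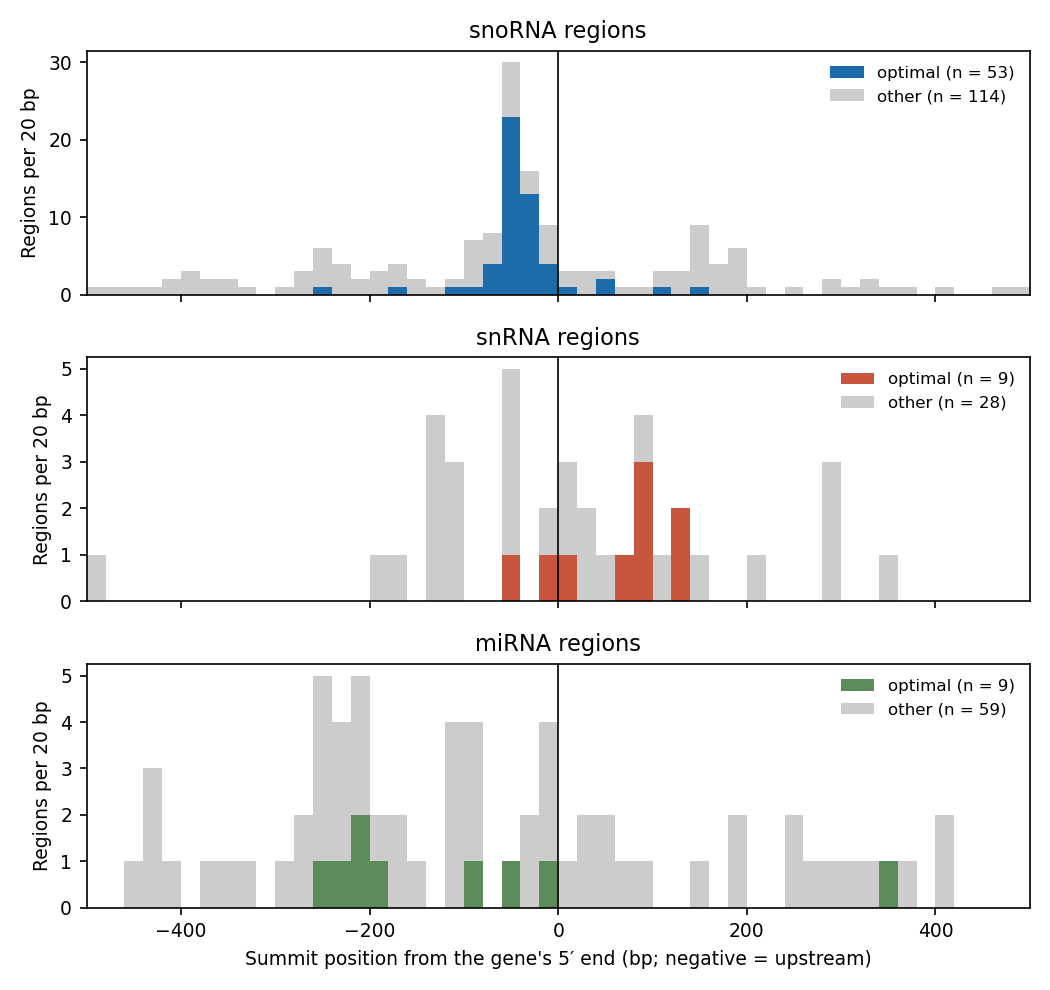
Number of regions per 20 bp (vertical axis) by summit position from the annotated 5′ end of the nearest gene (horizontal axis, bp, negative values upstream) for the 3 classes, with optimal regions in colour stacked below other regions in grey. Optimal snoRNA summits gather around 46 bp upstream, whereas snRNA and miRNA summits do not, and 7 snoRNA regions and 3 miRNA regions lie beyond 500 bp and are not drawn.

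Summits gathered in this interval at genes in host introns and at independent genes alike. Of the 167 snoRNA regions, 72 were at genes wholly inside an intron of a protein-coding gene, 70 at genes that overlap no protein-coding gene and 25 at genes with another overlap. The optimal list held 27 of the 72 host-intron regions (37.5%, interval 26.4 to 49.7%), 19 of the 70 independent ones (27.1%, interval 17.2 to 39.1%) and 7 of the other 25. The intervals of the first 2 overlapped. Median pooled signals were 53.8 and 55.4. The optimal summits lay at medians of 39 bp (host-intron, n = 27) and 50 bp (independent, n = 19) upstream of the 5′ end, with 22 and 16 of them between 80 and 10 bp upstream. Among host-intron snoRNA regions, 20 of 59 on the strand of the host gene and 7 of 13 on the opposite strand were optimal. Over the 3 classes together, 37 of 123 host-intron regions (30.1%) and 27 of 121 independent ones (22.3%) were in the optimal list. This order turned with the call: it was 32 of 139 (23.0%) and 31 of 126 (24.6%) among the highest regions of replicate 4 alone, and 16.3% and 19.0% with the stricter call.

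The boxes shown above were then counted. The letters and their spacing were chosen after the upstream sequences of the highest regions had been seen, so the counts describe these genes and are no independent evidence. An A box match followed 25 to 60 bp later by a B box match, on the gene's strand within 120 bp upstream, was present at 21 of 346 snoRNA genes (6.07%), 0 of 129 snRNA genes and 3 of 261 miRNA genes (1.15%). In the same window on the opposite strand it was present at 0 snoRNA genes. Downstream of the snoRNA gene it was present at 1 on the gene's strand and at 2 on the opposite one. It was present on the gene's strand upstream of 28 of 19973 protein-coding genes (0.140%). Within the genes themselves, 367 of 612 nuclear tRNA genes held it. Of the 21 snoRNA genes with the pair, 18 (85.7%, interval 63.66 to 96.95%) had an optimal region within 500 bp. Y39G10AR.24 had a pooled region outside that list (signal 76.4), and T23B12.13 and Y59E1B.14 had none. Of the 82 snoRNA genes with matches to A or B letters but not the pair, 19 (23.2%) had an optimal region, and of the 243 with neither, 18 (7.41%).

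The pair was found alike in introns and outside them. Of the 21 genes, 11 were in host introns, of which 10 had an optimal region, and 9 were independent, of which 7 did. The A box began at a median of 60 bp and the B box at a median of 14 bp before the 5′ end, and the starts were 44 bp apart in the median (range 35 to 55), the same as in the tRNA genes (median 44, range 36 to 58). In 13 of the 17 optimal regions whose nearest gene was one of these, the summit lay between the start of the A box and the end of the B box. The genes with the pair and a region had a median highest pooled signal of 175 (84.9 in replicate 3 and 88.8 in replicate 4), against 70.7 with matches to A or B alone and 50.6 with neither. The lowest value with the pair was 76.4. The highest was 477 with the pair, 405 with A or B alone and 477 with neither, so the groups overlapped. The value of 477 in both groups is that of the same region, because a region counts at every gene within 500 bp. It thus also enters both counts of 18 genes with an optimal region.

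**Figure D4:**
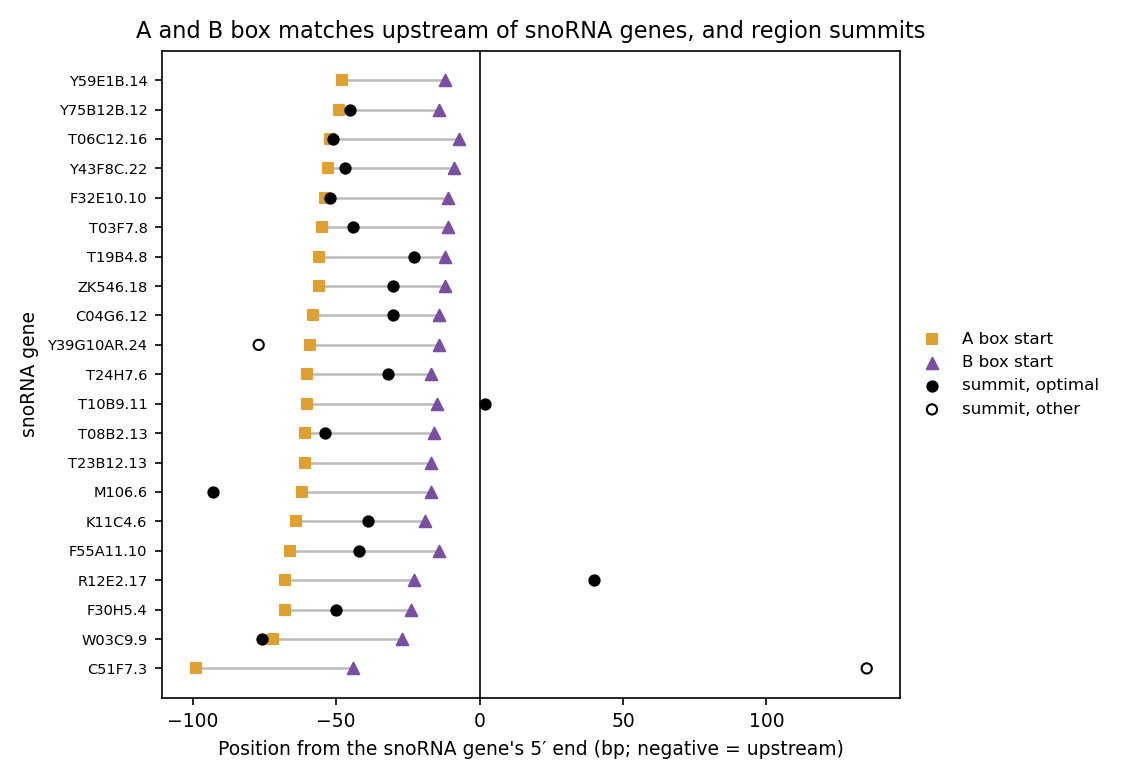
Positions from the 5′ end of the gene (bp, horizontal axis, negative values upstream) of the A box start (squares) and B box start (triangles) at the 21 snoRNA genes with the pair (vertical axis), and of the summit of the highest region whose nearest gene it is (filled circles, optimal; open circles, other). Most summits lie between the boxes, and 2 genes have no region.

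Around the summits themselves, within 100 bp to each side and on either strand, the pair was present in 18 of 53 optimal snoRNA regions (34.0%), 3 of 114 other snoRNA regions (2.63%) and none of the 37 snRNA and 68 miRNA regions. The share over all nuclear regions was 2.73%, that near tRNA genes 39.4%, and that in the remaining nuclear regions of the optimal list 2.11%. GGTTCGA, letters of the B box with its flanks, was in 9 of 53 optimal snoRNA regions (17.0%), 1 of 114 others (0.877%) and 45.2% of regions near tRNA genes, against 3.15% of all nuclear regions. CCGGAA, letters of the core site of ETS factors, was in 3 of the 53 (5.66%), 12 of the 114 (10.5%), 1 of 37 snRNA regions and 5 of 68 miRNA regions. It was in 14.1% of all nuclear regions, 4.55% of those near tRNA genes and 22.2% of the remaining nuclear regions of the optimal list. TATAAA was in 11 of the 53 (20.8%) and in 16.5% of all nuclear regions. TGTCGGCC, like the pair, was chosen after the sequences had been seen, so its counts are no independent evidence. It was in 5 of the 53 (9.43%), in 1 of the 114 and in 0.844% of all nuclear regions. Counted within 120 bp upstream of the gene, it was present at 18 of 346 snoRNA genes, of which 8 had a region and 4 (22.2%, interval 6.41 to 47.6%) an optimal one, against 15.5% of the 328 genes without it, and at none of the 21 genes with the pair. Lack of a match says only that these letters are not in the window.

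Median length was lower at snoRNA genes with an optimal region than at others. Genes with an optimal region within 500 bp (n = 55) had a median length of 91 bp, those with pooled regions outside the optimal list (n = 80) 131.5 bp and those with no region (n = 211) 133 bp, and the 21 with the pair 75 bp. TGATGA, letters of the C box of C/D snoRNAs, occurred in the first 25 bases of 21 snoRNA genes, of which 7 (33.3%, interval 14.6 to 57.0%) had an optimal region. ACA 3 nt before the 3′ end, as in H/ACA snoRNAs, occurred in 58, of which 14 (24.1%, interval 13.9 to 37.2%) did. Over all 346 genes, 135 (39.0%) had a region and 55 (15.9%) an optimal one. A pseudogenic tRNA of the RefSeq annotation held the summit of 2 optimal members, and a gene of biotype ncRNA held that of 33 members, 14 of them optimal. The same was not counted over all nuclear regions, so these counts have no background beside them.

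Summits at snRNA genes were spread before, in and after the gene. Of 37 regions, 17 had the summit upstream, 12 inside and 8 downstream, and of the 9 optimal ones 2, 5 and 2, at a median of 80 bp after the 5′ end. The replicates' own summits differed on this: 6 of the 8 highest snRNA regions of replicate 3 had the summit inside the gene, but 1 of the 7 of replicate 4, where 4 were downstream. The medians over all 8 and all 7 were 62 and 110 bp after the 5′ end. Host-intron genes accounted for 4 of the 9 and independent genes for 5. W05B2.8, in an intron of dhc-4, had the highest pooled signal of the class, 180, with 91.8 in replicate 3 and 89.4 in replicate 4. It belongs to a group of identical 102-bp genes, with 17 exact copies in the genome, of which 14 are annotated snRNA genes of that length. Of those 14, 5 had a region and 3 an optimal one (W05B2.8, C28A5.7 with 84.3 and R07E5.16 with 83.6). F54D8.7 (134; 61.6 and 73.9 in the replicates) also has 17 copies of its 101 bp. Annotated at that length are 3 genes, all with a region. Copies were counted as matches anywhere in the genome, so both sets of 17 may be the same places, which was not tested. Reads from identical copies cannot be placed on one of them, and how the authors treated such reads is not known here. The median share of 36-mers that occur once in the genome was 82.9% in snRNA regions, 100% in snoRNA and miRNA regions and 89.0% in regions near tRNA genes. Its part in the result was not tested.

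Spliced leader genes supplied 11 of the 37 snRNA regions and 4 of the 9 optimal ones, all at sls-2 genes, which encode the SL2 leader used for downstream genes of operons. Pooled signals were 160 at sls-2.1 (82.5 and 78.0 in the replicates), 156 at sls-2.4 (73.0 and 81.7) and 150 at sls-2.2 (95.6 and 54.5), each independent of protein-coding genes. A second optimal region at sls-2.1 (103) overlapped the first and met the same replicate regions. Of 18 sls-2 genes, 7 had a region within 500 bp and 4 an optimal one. None of the 12 annotated sls-1 genes, which encode SL1 and are all present in several identical copies, had a region. sup-6 and sup-39 are genes of U1 snRNA, which recognises the 5′ splice site. The region at sup-6 was optimal (107; 68.2 and 52.2), and that at sup-39 was not (52.1; 16.6 and 34.8).

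At miRNA genes, the regions of highest signal were at mir-51 and mir-52, of the mir-51 family. All 6 genes of that family had an optimal region within 500 bp, through 5 regions, against 13 of all 261 miRNA genes (4.98%). The region at mir-51, on chromosome IV, had a pooled signal of 311, with 162 in replicate 3 and 154 in replicate 4, and its summit lay 87 bp upstream. The region at mir-52 had 141 (83.9 and 67.8), with the summit 7 bp upstream. Regions at mir-53 (85.0; 54.4 and 32.4), mir-54 (90.8; 53.3 and 36.5) and mir-56 (84.6; 52.9 and 31.3) were weaker, and replicate 3 was the higher at each. The last 2 flank mir-55 in a cluster within introns of F09A5.3, on the strand opposite to that gene. Values at mir-53, mir-54 and mir-56 were close to the lowest pooled signal of the nuclear optimal list, 80.7.

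Of the 8 genes with the mir-35 seed, all had a pooled region within 500 bp, and 3 (mir-35, mir-36 and mir-37) had an optimal one, which was a single region. Its summit lay 247 bp before mir-35, the first gene of the cluster, its pooled signal was 94.1, and the replicates had 34.1 and 64.2. mir-42, which lies apart from that cluster, had 67.3 (38.4 and 30.2). The other optimal miRNA regions were at mir-58.1 (105; 47.0 and 62.6), mir-2 (84.8; 52.9 and 30.5) and mir-4929 (83.6; 37.1 and 45.6). The region at mir-80 was the highest one outside the list, with 80.4 (38.8 and 45.0). lin-4 had 71.4 (50.7 and 26.5), 427 bp upstream, and let-7, annotated with a 1732-bp gene, 66.7 (35.1 and 29.8).

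Summits at miRNA genes were farther from the gene than at snoRNA genes. The 9 optimal ones lay at a median of 198 bp upstream, 8 of them upstream, 0 inside and 1 downstream. Of all 68 regions, 45 were upstream, 8 inside and 15 downstream. The annotated miRNA gene is the hairpin and not the start of its primary transcript, so these distances do not give the place of a promoter. Host-intron miRNA regions were optimal in 6 of 35 cases (17.1%) and independent ones in 3 of 31 (9.68%), with overlapping intervals (6.56 to 33.7% and 2.04 to 25.8%). By gene, 69 of 261 miRNA genes had a region (26.4%) and 13 an optimal one (4.98%). The corresponding counts for snRNA genes were 31 of 129 (24.0%) and 9 (6.98%).

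Among optimal members with replicate 4 the higher, the largest log2 ratios were at mir-35 and W08G11.6 (-0.91 and -0.75). With replicate 3 the higher, they were at Y53F4B.48 and sls-2.2 (0.91 and 0.81). W08G11.6, a host-intron snoRNA gene, had 36.3 and 60.8, and Y53F4B.48, an independent one, 82.8 and 44.1. At the 500 bp limit, the members just inside were at C04A2.16 (494 bp, signal 39.1) and C01B10.48 (498 bp, 31.8). The regions just outside were at mir-240 (502 bp, 30.1) and K10D2.10 (503 bp, 27.6). None of the 4 was in the optimal list.

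Protein genes that make or process these RNAs had regions in their promoters, few of them strong. A promoter was taken as the 1000 bp before and the 200 bp after an annotated transcript start. Of 19973 protein-coding genes, 406 (2.03%) had an optimal and 4302 (21.5%) a pooled summit there. Of 58 listed genes, 54 were annotated under their names, and 3 (5.56%) had an optimal and 23 (42.6%) a pooled summit. The 3 were fib-1, which encodes fibrillarin (119; 55.1 and 65.3 in the replicates), snr-1, a gene of the Sm ring of snRNPs (86.2; 40.1 and 48.6), and ain-1, a partner of Argonaute in miRNA silencing (92.5; 42.9 and 51.3). By group, pooled summits were present at 5 of 6 snoRNP genes, 6 of 13 Sm and snRNP genes, 5 of 11 Integrator genes (3′ end formation of snRNAs), 5 of 9 miRNA pathway genes, 1 of 7 SNAPc genes (snRNA transcription) and 1 of 8 RNA polymerase III genes. The region in the promoter of snr-4 (49.6; 26.9 and 23.7) is also the one at the snRNA gene C52E4.8. Likewise, that in the promoter of nol-56 is the one at K07C5.11, a snoRNA gene in an intron of nol-56. Its signal was 30.4, with 14.7 in replicate 4 and no overlapping region in replicate 3.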

How the data were processed

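ChIP-seq region lists of 2 biological replicates were used, each in narrowPeak format on ce11. Per the deposited descriptions of the files, relaxed calls were made on each replicate and on the pooled reads to feed IDR (irreproducible discovery rate) analysis, and the optimal list was derived from them. The signal per region is the authors' deposited value. Its scaling, the aligner and the caller are not given in the sources, and controls were not analysed here. All chromosome ends of the lists fell within the WBcel235 reference.

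Genes and biotypes came from Ensembl 115, and names of all 736 small RNA genes from RefSeq by WormBase ID. Each region was assigned to the nearest gene, and its replicate signal was that of the highest replicate region overlapping it by at least 1 bp. The optimal list holds 595 regions, 576 of them nuclear, and is a threshold on pooled signal. Shares carry exact (Clopper-Pearson) 95% intervals, which cover counting error only. Regions are not replicates, and no test was made. Members, gene lists and rules were chosen with earlier results of these data known, and the A and B box pair and TGTCGGCC were chosen after seeing the sequences. Named genes are those at the 8 regions of highest pooled signal per class, all optimal snRNA and miRNA regions, spliced leader genes, lin-4, let-7 and mir-35, the regions at the 500 bp limit and those with the largest replicate differences. mir-42, mir-80, sup-39, sequence IDs that lack a region and others in the text were added after their values were seen. Assignment and overlap were tested on simulated data. Alternatives varied the limit, the treatment of tRNA genes, merging, the call and the replicate. Tables were computed with pandas 2.3.3 and NumPy 2.4.6 under Python 3.11.15, intervals with SciPy 1.17.1 and figures with matplotlib 3.10.9.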

Additional observations from a re-analysis of the deposited data

How the results depend on the processing

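Of 50 values recomputed with another setting, 40 stayed within the interval or spread of the reported value and 10 moved. These counts are no measure of robustness. The log2 ratio was judged against its SD over single regions, so it could hardly move, and keeping regions near tRNA genes added only 2 regions. The median signals of single replicates were judged on the pooled scale, so they had to move. Merging of overlapping regions raised the share of members in the optimal list to 32.3%, that of snoRNA regions to 40.2% and the median pooled signal to 54.2. A limit of 250 bp raised that median to 54.0. A stricter call, the optimal regions at or above the median signal of that list, lowered the shares to 17.3% for all members, 23.4% for snoRNA, 2.94% for miRNA (2 of 68) and 16.3% for host-intron regions, against 2.48% of all nuclear regions, so miRNA regions came near that background. Host-intron regions then had a lower share than independent ones (19.0%), the reverse of the reported order, as they did without replicate 3 (23.0 against 24.6%). Over the lists that leave out one replicate, the median signal of members was 23.4 to 25.5, on the scale of a single replicate's list. Their shares of members in the call ran from 23.7 to 23.8%. For the A and B pair, added after seeing the data, the share of snoRNA genes with an optimal region was 85.7% in each replicate's list and 81.8% with a window of 200 bp. No snoRNA gene held the pair upstream on the opposite strand, so that alternative gave no value. No paired analysis was possible because there is 1 group. Depth is unknown, and neighbouring regions of one locus are not separate measurements.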
